A study of Mus musculus with 4 samples.

Results

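The expression ratio of cardiac endothelium from mice injected intraperitoneally with LPS, relative to saline-injected mice, was examined at 4 h. It was read on 2 of the 4 arrays of the series, the other 2 being the same comparison at 24 h. The 4 h arrays were a dye-reversed pair with LPS RNA in Cy5 on array 1 and in Cy3 on array 2, and saline RNA in the other dye. All groups were mice, and all RNA had been amplified before labelling and hybridised to spotted long oligonucleotides of the Operon mouse V1 set. The strain and age of the mice, the LPS dose, the number of animals, any pooling and the way the endothelium was isolated could not be learned from the labels. Described were all 11138 genes with 1 symbol on the array, and a gene was called higher or lower where array 1 and array 2 were each 2-fold or more (1 log2 unit) away from 0 in the same direction. The table held ratios only, so the level of an endothelial or other marker could not be checked.

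LPS is a glycolipid of Gram-negative bacteria. Cells bind it through LPS-binding protein, CD14, MD-2 and Toll-like receptor 4, from which the adaptor MyD88 leads to NF-kB and inflammatory genes, while the adaptor TRIF leads to IRF3, type I interferon and interferon-induced genes. Endothelial cells line the vessels and answer such signals by displaying selectins and chemokines that recruit leukocytes, and by changing the receptors and junctions that set vessel growth, tone and permeability.

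The values are log2 ratios of LPS over saline, centred on the median gene of each array. This direction is likely from the dyes named in the labels and is not stated in the table, whose 2 columns for 4 h correlated at -0.06 over spots before the sign of array 2 was turned. Were it Cy3 over Cy5, all signs below would be reversed. If it was already turned alike, the genes called here would lie on opposite sides on the 2 arrays. Values written as mean ± SD are over the 2 arrays (n = 2 arrays), which cover array and dye error. Nothing in the labels says that the reversed array held RNA of other animals, so the pair counted as 1 replicate and gave no test between LPS and saline.

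Of the 11138 genes, 362 (3.25%) were changed at 4 h, 251 (2.25%) higher and 111 (0.997%) lower. A further 158 genes (1.42%) were 2-fold on both arrays but on opposite sides. This shows the size of array error, provided that the sign of array 2, turned from the labels, is right. Of the 158, 87 were higher and 71 lower on array 1. The 111 lower calls are not far above these counts, so many of them may be array error. Higher genes had a median of 1.76 and a median SD of 0.36, and lower genes a median of -1.72 and a median SD of 0.44. At 4-fold on both arrays there were 55 higher and 8 lower genes, and at 8-fold 16 higher and 0 lower. Where every single spot had to be 2-fold, 175 genes (1.57%) passed, 139 (1.25%) higher and 36 (0.323%) lower. This was 55.4% of the higher but 32.4% of the lower genes, so fewer of the lower calls held in every spot. Past 2-fold on opposite sides in every spot were 19 genes. Array 1 was the noisier, with an SD of 1.20 over genes and 20.8% of genes past 2-fold, against 0.73 and 12.7% on array 2. With the arrays taken as separate samples, limma with Benjamini-Hochberg adjustment passed 0.0% of genes, 0 at an adjusted p under 0.05 (lowest adjusted p = 0.884), and 531 had an unadjusted p under 0.05.

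**Figure D1:**
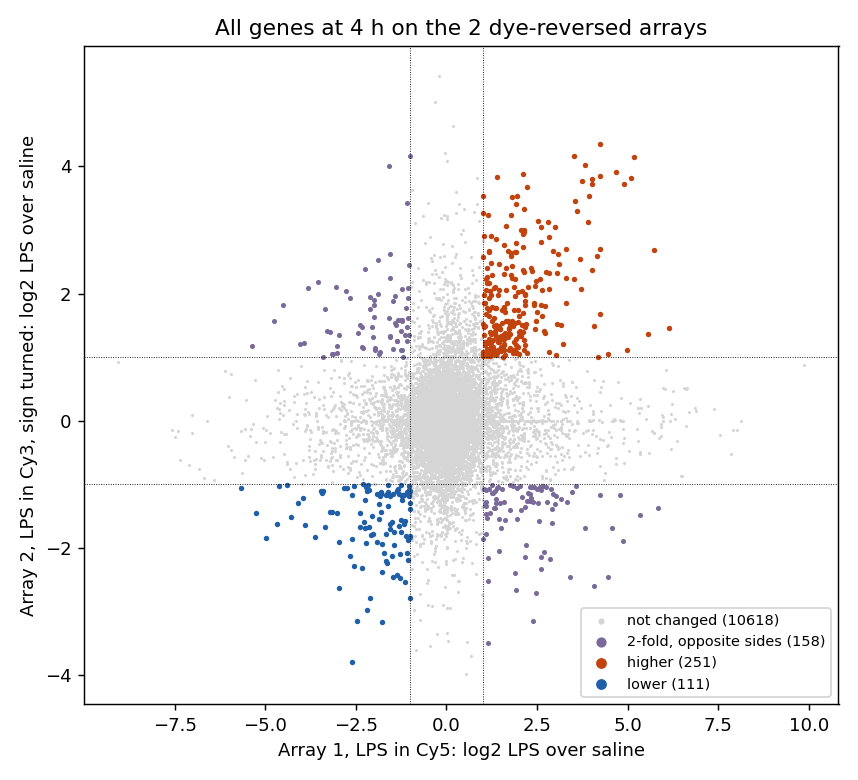
Log2 ratio of LPS over saline of each of 11138 genes on array 1 (horizontal) and array 2 (vertical, sign turned), with dotted lines at 2-fold. The 251 higher genes (upper right) outnumber the 111 lower genes (lower left), 158 genes lie past 2-fold on opposite sides, and the points spread wider along array 1.

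The genes with the highest ratios on both arrays had varied roles, and many of the 30 highest are described with their groups further on. Gbp8, a guanylate-binding protein, stood at 4.23 on array 1 and 4.34 on array 2. Ly6f, a member of the Ly6 family of membrane-anchored proteins, was close to it at 4.67 and 3.91. Casp4, the inflammatory caspase that binds LPS inside the cell, had 4.02 and 3.8. Hif1a, the oxygen-regulated subunit of hypoxia-inducible factor, was close on both arrays at 3.73 and 3.76, although its array 1 spots were 2.47 and 4.99. Below these lay Snx10, a sorting nexin of endosomes, at 3.92 and 3.12, and Igfbp7, a binding protein of insulin-like growth factors that vascular cells secrete, at 3.0 and 3.04. Akap12, a scaffold of protein kinase A, was at 2.53 and 3.13, and Mtmr3, a phosphoinositide phosphatase, at 3.09 and 2.61. Vmn1r-ps8 (4.14 and 2.58) and Gm9706 (4.23 and 2.70) were also among the 30 highest, with a wider gap between arrays. The spread between arrays was at most 0.5 (SD) in 21 of these 30 genes and was greatest in the metallothionein Mt2, at 5.73 and 2.68. All 30 kept their call with scale or quantile normalization, without centring, without spots at a ratio of exactly 1, and with the largest oligonucleotide of a gene in place of the mean, as did the 20 lowest genes. These genes were picked as 2-fold in every spot with the largest weaker array, so keeping the call was largely fixed by the choice.

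**Figure D2:**
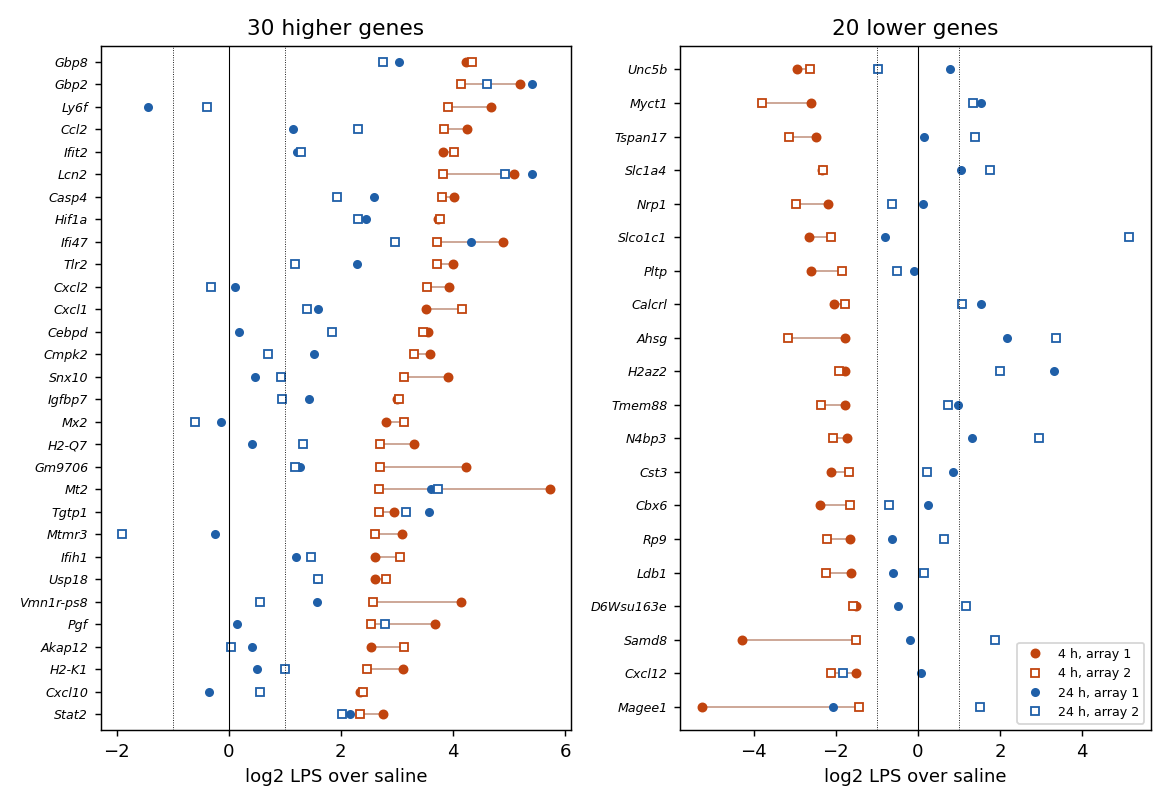
Log2 ratio of LPS over saline on each array at 4 h (red) and 24 h (blue) for the 30 higher and 20 lower genes with the largest weaker array among genes 2-fold in every spot, in that order, with dotted lines at 2-fold. At 24 h, 16 of the 30 higher genes were also called higher, and 6 of the 20 lower genes were called higher and 0 lower. The genes were picked by their 4 h values, so less extreme 24 h values are expected.

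Interferon-induced GTPases held the largest share of higher genes, 8 of 13 measured members and 0 lower, against 2.25% of all genes, and their median was 2.07. These proteins attack the vacuoles or capsids of intracellular pathogens. Gbp2 was at 5.19 and 4.14 (4.67 ± 0.74), the highest mean of the group, and Gbp3 at 1.23 and 2.91 (2.07 ± 1.19). The immunity-related GTPases Ifi47, Tgtp1 and Irgm2 were all higher. Ifi47 had 4.89 and 3.72, Tgtp1 2.94 and 2.67, and Irgm2 2.10 and 3.87. The antiviral dynamin-like GTPases were higher as well, Mx2 at 2.81 and 3.12 (2.97 ± 0.22) and Mx1 at 1.12 and 2.26 (1.69 ± 0.81). Of the 5 members not called, Igtp (0.53 and 2.08), Iigp1 (1.61 and 0.88) and Irgm1 (0.42 and 0.90) were above 0 on both arrays. Rnd3, a small GTPase that the list holds beside the interferon-induced ones, was at -0.79 and 1.31. Gbp2b was within about 0.01 of 0 on both, as spots at a ratio of exactly 1 also are, so no lack of change can be read from it.

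Among interferon-induced effectors and sensors, 12 of 42 (28.6%) were higher and 0 lower, against 2.25% of all genes higher. The list median was 0.83, and 1 of the 12, Ifi47, is also counted among the GTPases. Ifit2, which binds viral RNA, was at 3.83 and 4.01 (3.92 ± 0.13), and Ifit3 at 1.00 and 2.58, just inside the threshold on array 1. Rsad2, or viperin, which blocks viral replication, was at 1.96 and 3.54. Cmpk2, a nucleotide kinase that lies beside Rsad2 and is on none of the lists, was at 3.59 and 3.30. The cytosolic RNA sensor Ifih1 was at 2.61 and 3.05, the DNA-binding proteins Ifi204 and Ifi202b at 2.12 and 2.73 and at 1.47 and 2.05, and the nucleotide hydrolase Samhd1 at 1.81 and 2.43. Usp18, which removes the ubiquitin-like ISG15 from proteins, was at 2.60 and 2.81, and Pml, Ifi35 and Isg20 completed the 12 with weaker arrays of 1.89, 2.15 and 1.14. In Ifit3, Rsad2, Pml, Isg20 and Ifi202b at least 1 spot was under 2-fold. Just outside the threshold lay Ifitm3, with an array 1 value that rounds to 1.00 and 2.82 on array 2.

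Of 17 interferon regulatory factors, STATs and their kinases, 3 (17.6%) were higher, against 2.25% of all genes. Stat2, a transcription factor of type I interferon signalling, was at 2.75 and 2.34 (2.54 ± 0.30). Irf7, which amplifies interferon production, was at 1.17 and 2.66, and Irf1 at 1.02 and 2.90, and both had a spot under 2-fold. Irf9, which binds DNA together with Stat2, missed the threshold narrowly at 0.92 and 0.97. Irf3, which is activated by phosphorylation, was at 0.31 and 0.00.

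The promoters of the interferon and chemokine genes are shown because many of these genes were higher together. The RefSeq promoter table (GRCm38.p6, 250 bases before to 50 after each start) held 8807 of the 11138 genes, and 8.92% of them had the core of the interferon-stimulated response element, GAAANNGAA, on either strand. It was found in 27 of the 191 higher genes with a promoter. Only 76.1% of the 251 higher genes had a promoter, under the 80% set for such a check, so the comparison of shares is void and only single genes are described. A match is a description of letters, not a site. The 250 bases before the start are given for Gbp2 (chr3:142620413-142620662, + strand) and Ifit3 (chr19:34583279-34583528, + strand), 5′ to 3′ along the gene, with capitals for matches of this core on either strand and of the NF-kB letters given further on.
Gbp2: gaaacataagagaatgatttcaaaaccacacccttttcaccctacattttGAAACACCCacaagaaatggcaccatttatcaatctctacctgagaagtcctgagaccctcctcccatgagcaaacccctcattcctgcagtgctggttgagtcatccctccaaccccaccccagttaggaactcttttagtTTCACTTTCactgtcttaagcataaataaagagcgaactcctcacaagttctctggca
Ifit3: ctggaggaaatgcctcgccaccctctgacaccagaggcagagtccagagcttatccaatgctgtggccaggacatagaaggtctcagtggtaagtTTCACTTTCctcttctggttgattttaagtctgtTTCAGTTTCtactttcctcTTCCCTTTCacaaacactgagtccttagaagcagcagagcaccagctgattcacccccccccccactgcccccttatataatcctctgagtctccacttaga
In Gbp2 the response element core ran from -58 to -50 relative to the start, and NF-kB letters from -200 to -192. Ifit3 had 3 such cores, at -155 to -147, -121 to -113 and -102 to -94. Both kinds of letters were found together in 53 genes, 0.602% of those with a promoter, of which 4 were higher at 4 h, namely Gbp2, Gbp3, Cxcl9 and Snx10. The core overlaps in part with other motifs searched, such as that of STAT dimers, TTCNNNGAA, which 8.53% of genes held.

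Chemokines and their receptors had 7 higher members and 1 lower of 52, with 13.5% higher against 2.25% of all genes. Ccl2, which draws monocytes, was at 4.25 and 3.85 (4.05 ± 0.28). The neutrophil attractants Cxcl1 and Cxcl2 were of a similar size, Cxcl1 at 3.51 and 4.16 (3.84 ± 0.46) and Cxcl2 at 3.94 and 3.53 (3.74 ± 0.29). The ligands of CXCR3, which draw activated T cells and natural killer cells, were all higher. Cxcl10 stood at 2.34 and 2.40, Cxcl11 at 2.51 and 1.72, and Cxcl9 at 1.92 and 2.79. Ccrl2, an atypical chemokine receptor, was at 1.25 and 1.16. Cxcl12, the ligand of CXCR4 that holds leukocytes and progenitors in tissue, was the lower member at -1.5 and -2.12 (-1.81 ± 0.44). All 8 calls held in every spot. The monocyte and lymphocyte attractants Ccl3 (-0.15 and 0.86) and Ccl4 (-0.44 and 1.25) were not called. Of 17 neutrophil markers 1 was called, 5.88% against 3.25% of all genes, namely Lcn2, which other cells also make. S100a8 (-0.24 and -0.02) and S100a9 (-0.61 and -0.04), picked after their values were seen, were within 2-fold. Ratios do not give the amount of blood cells in the isolate.

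The promoters of Cxcl10 (chr5:92348890-92349139, - strand), Cxcl1 (chr5:90890995-90891244, + strand) and Cxcl2 (chr5:90903649-90903898, + strand) are given in the same way. The NF-kB letters searched were GGGNNTTTC on both strands, found in 4.97% of genes with a promoter and in 15 of the 191 higher ones, a comparison that is void for the same reason.
Cxcl10: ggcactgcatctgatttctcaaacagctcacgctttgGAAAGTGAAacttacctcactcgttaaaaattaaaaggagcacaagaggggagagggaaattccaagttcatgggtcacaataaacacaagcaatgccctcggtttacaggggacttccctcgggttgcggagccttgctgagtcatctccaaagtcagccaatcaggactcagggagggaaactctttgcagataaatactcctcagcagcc
Cxcl1: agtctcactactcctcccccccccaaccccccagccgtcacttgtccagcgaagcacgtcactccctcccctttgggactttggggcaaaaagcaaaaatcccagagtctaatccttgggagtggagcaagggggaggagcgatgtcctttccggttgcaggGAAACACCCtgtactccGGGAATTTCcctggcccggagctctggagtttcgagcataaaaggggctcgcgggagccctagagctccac
Cxcl2: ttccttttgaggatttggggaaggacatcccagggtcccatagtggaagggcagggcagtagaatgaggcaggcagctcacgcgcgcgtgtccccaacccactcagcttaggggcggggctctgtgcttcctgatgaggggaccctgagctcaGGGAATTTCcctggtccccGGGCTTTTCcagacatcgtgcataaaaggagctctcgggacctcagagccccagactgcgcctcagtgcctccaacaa
Cxcl1 and Cxcl2 both held GGGAATTTC, at -71 to -63 and at -97 to -89. Each had a further match, GAAACACCC on the reverse strand at -88 to -80 in Cxcl1 and GGGCTTTTC at -78 to -70 in Cxcl2. Cxcl10 held the interferon element core at -213 to -205 and no match of GGGNNTTTC in this window. Other forms of the NF-kB letters were not searched, so their absence from Cxcl10 is not shown. Ccl2, Gbp8, Cebpd, Mx2 and Usp18 are named only.

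Genes widely known as induced by LPS were changed in 9 of 28 cases (32.1%), all higher, against 2.25% of all genes higher. The group median was 0.85. Lcn2, which withholds iron from bacteria, led with 5.09 and 3.82, and Tlr2, the receptor of bacterial lipoproteins, had 4.01 and 3.71. Gch1, the first enzyme of tetrahydrobiopterin synthesis, was at 1.77 and 2.64, Ier3 at 2.11 and 1.40, and Sele, the endothelial selectin that slows rolling leukocytes, at 1.36 and 1.51 (1.43 ± 0.11). With Ccl2, Cxcl1, Cxcl2 and Irf1 these made up the 9. Other members passed 2-fold on array 2 and not on array 1. Il6 was at 0.27 and 3.59, Ptgs2 at 0.15 and 2.15, and the adhesion molecule Vcam1 at 0.80 and 1.98. Saa3, an acute-phase protein, missed the threshold narrowly at 0.98 and 2.61. Nfkbia, an inhibitor of NF-kB that NF-kB itself induces, was past 2-fold on array 1 alone, at 2.01 and -0.29. Its 2 array 1 spots were at 4.01 and 0.01, so the 2.01 rested on 1 spot. The cytokines Tnf (-0.47 and 0.09), Il1b (-0.11 and 0.33), Il1a (0.17 and 0.59), Il10 (-0.74 and 0.38) and Il12b (-0.64 and 0.34) were within 2-fold on both arrays. Tissue factor, F3, was at 0.48 and 0.30. Selp reached 0.70 and 0.96, Socs3 was near 0 at 0.14 and -0.06, and inducible nitric oxide synthase, Nos2, lay below 0 at -1.29 and -0.37. The table cannot tell an absent change from a spot too weak to show one, since it holds no intensities.

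**Figure D3:**
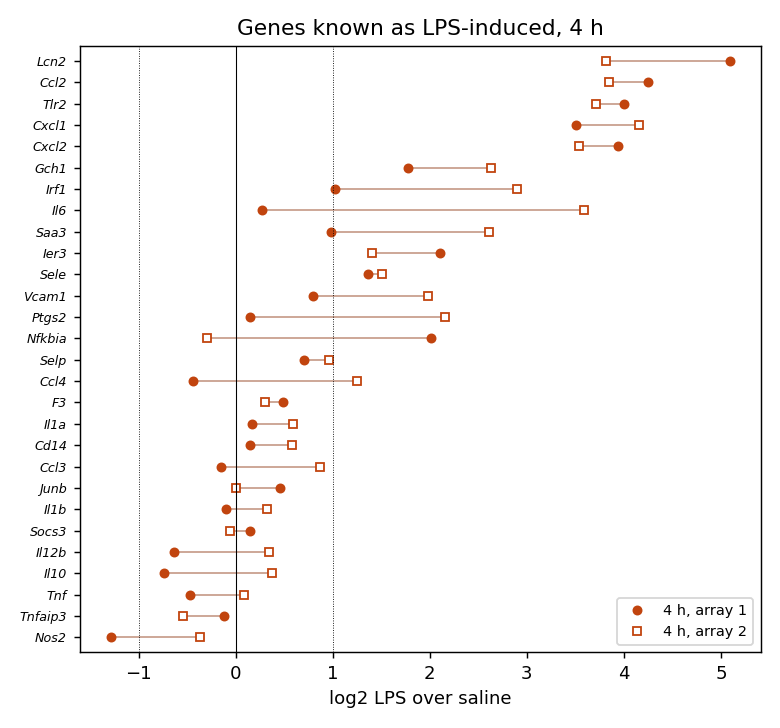
Log2 ratio of LPS over saline on array 1 (filled circles) and array 2 (open squares) at 4 h for the 28 measured genes of a list known as LPS-induced, ordered by mean, with dotted lines at 2-fold. In 9 genes both arrays pass 2-fold, and Il6, Saa3, Vcam1, Ptgs2 and Ccl4 pass on array 2 alone, Saa3 lying at 0.98 on array 1.

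Of 24 Toll-like and related receptors and adaptors, 3 (12.5%) were higher and 0 lower, against 2.25% of all genes higher. Beside Tlr2 these were Tlr3, which senses double-stranded RNA, at 2.63 and 1.64 (2.13 ± 0.70), and Lbp, the LPS-binding protein, at 1.71 and 1.57 (1.64 ± 0.10). The parts of the LPS receptor itself, picked after their values were seen, were within 2-fold. Tlr4 was at -0.40 and -0.06, Cd14 at 0.15 and 0.58, Ly96, which encodes MD-2, at 0.53 and 0.60, and Myd88 at 0.54 and 0.45. In the NF-kB family and its regulators 3 of 19 (15.8%) were higher, against the same 2.25%. The list had a median of 0.63 over the mean of the arrays, but of 0.03 on array 1 and 0.62 on array 2. Rela, the main activating subunit, was at 1.37 and 1.77, and Tnip1, a partner of A20, at 3.05 and 2.33. Birc3, an inhibitor of cell death, differed between arrays at 1.15 and 3.23. A20 itself, Tnfaip3, was at -0.12 and -0.55. Among 108 interleukins, TNF family members and their receptors, the oncostatin M receptor Osmr was the only changed gene, at 1.65 and 2.40 (2.02 ± 0.52), a share of calls below that of all genes.

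Antigen presentation was higher in 8 of 46 members (17.4%) and lower in 0, against 2.25% of all genes higher. All 8 were MHC class I heavy chains or related genes. H2-K1 and H2-D1, the classical chains that show peptides to CD8 T cells, were at 3.12 and 2.47 and at 3.31 and 2.24. H2-Q7 was at 3.31 and 2.71, H2-Q8 at 1.23 and 2.48, H2-T9 at 1.98 and 1.16, H2-T22 at 1.25 and 1.28, and H2-Q1 at 1.5 and 1.34. H2-D4 had arrays far apart, at 4.98 and 1.11. These genes are close copies of each other and a long oligonucleotide may read several, so they may not be 8 separate measurements. H2-Q1 was the only named gene whose sign turned under an alternative, at -0.21 with oligonucleotides whose duplicate spots were within 0.5 log2 units. The proteasome, which makes the peptides, had 5 of 45 members (11.1%) higher, against the same 2.25%, and 0 lower, and a median of 0.28. Psme2b, a gene for the interferon-induced activator subunit, was at 2.84 and 2.89. Psma3, Psmc2, Psmd2 and Psmd7 had means from 1.36 to 1.70. Of 167 ubiquitin ligases, proteases and F-box genes, 5 (2.99%) were higher, close to the 2.25% of all genes, and Fbxo9 was lower at -1.25 and -1.56. Beside Usp18 the higher genes were the deubiquitinases Usp25 (3.30 and 1.86) and Usp16 (1.59 and 1.78), the ubiquitin ligase Rnf125 (1.88 and 2.66) and Ube2l6 (2.02 and 1.42), which conjugates ISG15.

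Metal-binding and acute-phase proteins were higher in 4 of 28 cases (14.3%), against 2.25% of all genes, and lower in 0. Each of the 4 held in every spot. Mt2, which binds zinc and copper, was at 5.73 and 2.68 (4.20 ± 2.16) and Cp, the copper ferroxidase ceruloplasmin, at 2.18 and 1.47 (1.83 ± 0.50). Lcn2 and Lbp were the others. In the list linked to glucocorticoids, Mt2, Lcn2, Cebpd and Cdkn1a were higher, 4 of 16 (25.0%) against the same 2.25%, and Tsc22d3 was lower. Tsc22d3, or GILZ, which glucocorticoids induce, had -1.29 and -2.09 (-1.69 ± 0.57). Of 45 apoptosis genes and caspases, Casp4 and Birc3 were higher and Pycard, the adaptor of inflammasomes, was lower at -4.69 and -1.61, with at least 1 spot under 2-fold. Together these were 6.67% of the list, against 3.25% of all genes. Of 80 extracellular proteases and inhibitors 1 was higher and 1 lower, together 2.5% against 3.25% of all genes. These were the inhibitor Timp1 at 2.11 and 1.70 and cystatin C, Cst3, at -2.13 and -1.67. Ctsl, a lysosomal cathepsin, was higher at 2.18 and 1.99 (2.08 ± 0.13).

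Immediate-early and related transcription factors had 8 higher and 1 lower of 62, with 12.9% higher against 2.25% of all genes. Cebpd, which drives acute-phase genes, was at 3.56 and 3.46 (3.51 ± 0.07) and its relative Cebpb at 2.14 and 1.12. Single spots of the 2 oligonucleotides of Cebpb ran from -1.92 to 3.31, so that call rests on spots that disagree. Myc, a regulator of growth, was at 1.77 and 3.23. Btg1 and Ier5 had nearly equal arrays, at 1.45 and 1.47 and at 1.29 and 1.27, and Gadd45g was at 1.12 and 1.02. Hif1a and Ier3 were the remaining higher members and Tsc22d3 the lower. Junb, a classical immediate-early gene, was at 0.46 and 0.00, with each of its spots on array 2 at 0.0. Next to Hif1a, the glycolytic enzymes Ldha (2.09 and 2.03) and Aldoa (1.86 and 1.24) were the 2 higher genes of 27 in glycolysis. That is 7.41%, against 2.25% of all genes. Hif1an, which hydroxylates Hif1a, was called higher on arrays that differed widely, at 6.15 and 1.45, and at least 1 of its spots was at 0. Ctnnb1, beta-catenin, was the only changed gene of 43 in the Wnt pathway, at 2.26 and 2.11 (2.19 ± 0.11). That share of 2.33% was below the 3.25% of all genes.

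Endothelial identity and junction genes went the other way from the inflammatory groups, with 5 of 42 lower and 1 higher, against 0.997% of all genes lower. Myct1, a membrane protein of endothelial cells, was at -2.59 and -3.79 (-3.19 ± 0.85) and Unc5b, the netrin receptor of vessels, at -2.95 and -2.63 (-2.79 ± 0.23). Kdr, the main receptor of VEGF, was at -1.36 and -2.42 with 1 or more spots under 2-fold. Eng, a co-receptor of TGF-beta, was at -1.27 and -2.46. Calcrl, the receptor of adrenomedullin and CGRP, was at -2.03 and -1.78 (-1.91 ± 0.18). Cldn5, the tight junction protein, was higher at 1.22 and 1.36. Most members were not changed, and the list median was -0.04. The defining genes Pecam1 (0.11 and -0.09), Cdh5 (-0.18 and 0.20), Tek (0.04 and -0.33) and Nos3 (0.05 and -0.10), picked after their values were seen, were near 0. Another endothelial receptor, Tie1, lay past 2-fold on opposite sides, at 1.20 and -1.45. In bulk RNA fewer cells of a kind and less RNA per cell cannot be told apart.

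In the wider group of angiogenic ligands, receptors and guidance cues, 4 of 109 (3.67%) were higher, not far from the 2.25% of all genes. Another 3 were lower, a larger share than the 0.997% of all genes. The 7 made up 6.42% of the list, against 3.25% of all genes changed. The higher members were Hif1a, Hif1an with its arrays far apart, Pgf and Pdgfa. The growth factors Pgf, a ligand of the VEGF receptor Flt1, and Pdgfa, which recruits mural cells, were higher at 3.68 and 2.54 and at 2.21 and 1.52. The receptors Nrp1, a co-receptor of VEGF and semaphorins, and Unc5b were lower, Nrp1 at -2.19 and -2.97 (-2.58 ± 0.55). Esm1, a proteoglycan secreted by endothelium, was lower at -1.15 and -2.53. Of 36 vasoactive mediators 2 were lower, Calcrl and the prostacyclin receptor Ptgir, the latter at -1.02 and -1.10, and Gch1 was higher. Together these were 8.33% of the list, against 3.25% of all genes changed, and the share higher, 2.78%, was near the 2.25% of all genes. Endothelin 1, Edn1, was at 0.10 and 0.64. Spry2, an inhibitor of growth factor signals, was lower at -4.99 and -1.84, and Id3, a target of BMP signals, was higher at 1.17 and 1.74.

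The other genes with the lowest ratios had mixed roles. Tspan17, a tetraspanin, was at -2.47 and -3.15, and Slc1a4, a transporter of neutral amino acids, at -2.34 and -2.32. Slco1c1, a thyroid hormone transporter of brain vessels, had -2.65 and -2.12, and Pltp, which transfers phospholipids between lipoproteins, -2.61 and -1.85. The histone variant H2az2 was at -1.77 and -1.93 and the Polycomb protein Cbx6 at -2.37 and -1.66. Ahsg, the plasma protein fetuin-A, was at -1.77 and -3.16. Tmem88 (-1.77 and -2.37), N4bp3 (-1.72 and -2.08), Ldb1 (-1.64 and -2.24), Rp9 (-1.66 and -2.21) and D6Wsu163e (-1.51 and -1.58) had arrays within 1 log2 unit of each other. Samd8 (-4.29 and -1.51) and Magee1 (-5.27 and -1.44) did not. Among solute carriers 1 of 191 was higher, Slc15a3, a peptide and histidine transporter, at 4.02 and 2.38, and Slc1a4 and Slc22a4 were lower. Together these were 1.57% of the list, below the 3.25% of all genes changed. Homeobox and developmental factors had 3 lower members of 148, Foxd3, Hoxa9 and Hoxa13, and 0 higher. This is 2.03% lower against 0.997% of all genes, and 0 of the 3 held in every spot.

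Genes of protein synthesis differed by group, and the share of higher genes to set them against is 2.25%. Among the 70 genes of the cytosolic ribosome 12 were higher and 1 was lower, with a median of 0.50 that came from array 1, where it was 0.68, and not from array 2, where it was 0.00. The higher members lay between Rpl7, at 1.17 and 1.04, and Rps10, at 2.45 and 2.12. Rps14 (2.14 and 2.33) and Rplp0 (1.78 and 2.29) were near the top. Rpl24 was the lower member, at -2.09 and -1.79, with a spot under 2-fold. Translation factors had 4 higher of 51 and 0 lower, with the RNA helicase Eif4a1 at 1.98 and 1.55, Eif2b2 at 2.60 and 1.82, Eif3c at 1.99 and 1.06 and Eif1ad at 1.09 and 2.23. Nucleolar factors had 2 of 33, Npm1 (1.73 and 1.44) and Gnl2 (1.17 and 1.93). Mitochondrial ribosomal proteins had 2 higher of 66, Mrpl49 (1.96 and 1.75) and Mrps7 (1.17 and 1.65), a share of 3.03% near that of all genes, and tRNA synthetases had 0 of 19. Ribosomal genes have many near-identical copies in the genome that oligonucleotides can share.

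Cytoskeletal genes had 9 higher and 1 lower of 99, with 9.09% higher against 2.25% of all genes. Tubulins Tuba1a (2.07 and 1.5), Tuba1c (1.48 and 1.44) and Tubb6 (1.87 and 1.74), the actins Actg1 (1.59 and 1.77) and Actg2 (1.77 and 2.59), and the myosin light chains Myl6 (1.23 and 1.15) and Myl12b (1.55 and 1.36) were among them. Rhoc, a GTPase that controls actin, was also higher at 2.41 and 1.85 (2.13 ± 0.40). Actg2 is a smooth muscle gene and was the only one of 16 smooth muscle and pericyte markers to be called, 6.25% against 3.25% of all genes. Chaperones had 5 higher of 97 and 0 lower, against 2.25% of all genes higher, and 3 further members were 2-fold on opposite sides. Only 2 of the 5 held in every spot. They included the heat shock proteins Hspa1b (1.66 and 2.05) and Hspb1 (1.88 and 1.54), the cyclophilin Ppia (1.83 and 1.49) and Bag4 (2.36 and 2.35). Of 87 histone and chromatin genes 4 were higher and 3 lower, against 2.25% and 0.997% of all genes, and 1 of the 4 was Asf1b, at 5.56 and 1.36 with a spot at 0. The replication-independent histone H3f3b was at 2.65 and 2.05, while the demethylase Kdm4b was lower at -1.24 and -1.24.

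Over all 63 lists, 25 had higher members alone, 3 had lower members alone, and 14 had no changed member. The lists without one were complement (23 genes), coagulation (27), Notch (22), the circadian clock (16), tRNA synthetases (19), the unfolded protein response (18), collagens, laminins and integrins (81), kinases of the MAPK and PI3K routes (74), and the markers of cardiomyocytes (32), monocytes and macrophages (30), lymphocytes (25), erythrocytes (11), platelets (10) and fibroblasts (19). With 3.25% of all genes changed, a short list often holds no changed gene, so this shows little about the shorter lists. More genes were higher (251) than lower (111) and lists share members, so 25 against 3 follows in part from that. Medians of the 8 marker lists lay between -0.15 and 0.30. Since the table holds ratios, the amount of RNA from such cells in either group is unknown and its part in the results was not tested. Of the 362 changed genes, 167 were on a list and 195 on none. Several oligonucleotides were averaged in 19 changed genes, and in 14 of the 19 these differed by at least 2-fold. Spots of H2-Q8, for example, ran from -2.22 to 4.34. Among the changed genes named above, at least 1 spot was under 2-fold also in Cdkn1a, Mrpl49, Mrps7, Cebpb, Gadd45g, Timp1, Esm1, Ptgir, Spry2, Birc3, Psmc2, Psme2b, Rnf125, Fbxo9, H2-Q1, H2-Q8, H2-T22, Tuba1a, Tubb6, Actg1, Ppia, Bag4, Kdm4b, Gnl2, Rpl7, Eif1ad, Slc15a3, Slc22a4, Foxd3, Hoxa9 and Hoxa13.

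**Figure D4:**
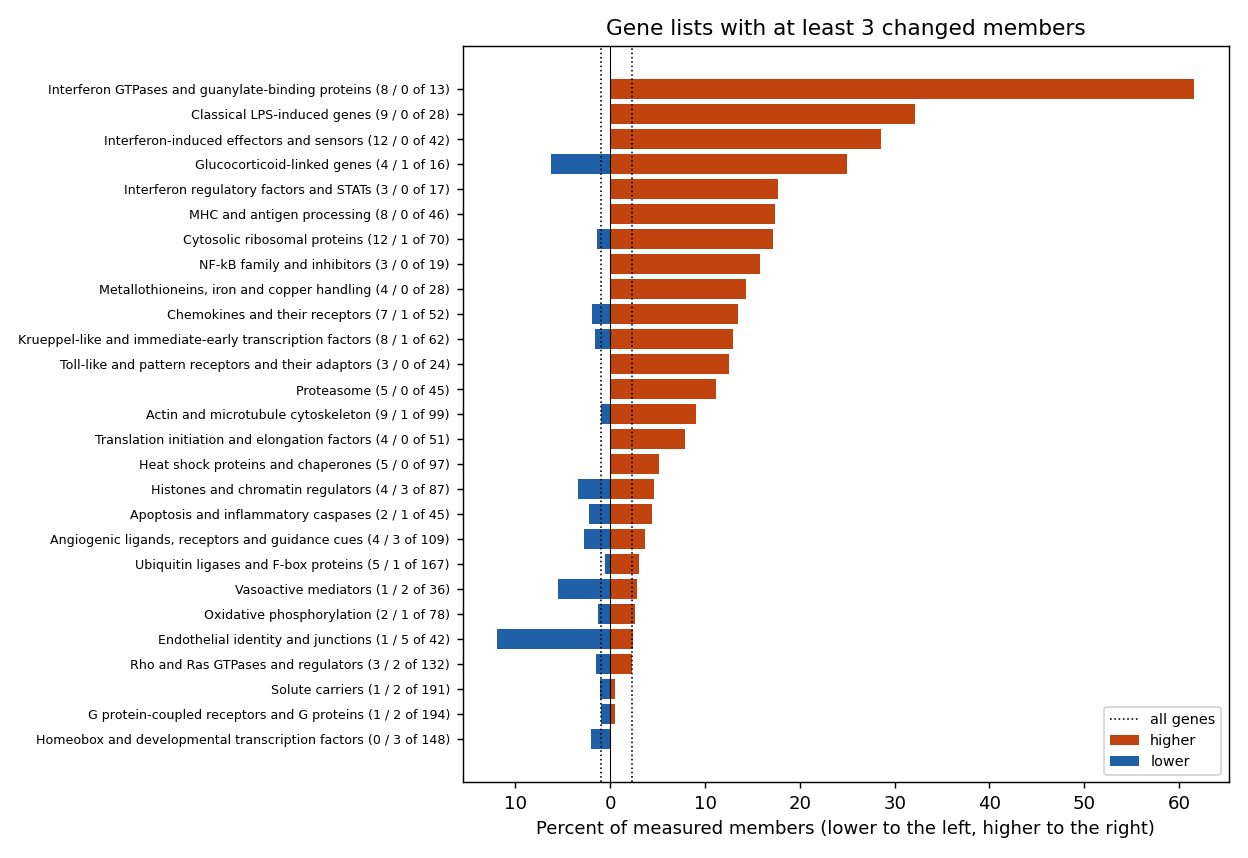
Percent of measured members called higher (red, right) and lower (blue, left) at 4 h for each list with at least 3 changed members, with counts of higher, lower and measured genes in brackets and dotted lines at the percentages of all genes. Interferon GTPases have the highest share of higher genes (8 of 13), and endothelial identity genes the highest share of lower ones (5 of 42).

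At 24 h the same rule called 780 genes (7.0%), 388 (3.48%) higher and 392 (3.52%) lower. The labels do not say whether 4 h and 24 h shared saline RNA, so the values are set side by side. Of the 30 highest genes of 4 h, 16 were also called higher at 24 h, and 24 had both 24 h arrays under both 4 h arrays. The 30 highest and 20 lowest genes were picked for extreme 4 h values, so less extreme values at 24 h are expected from the choice alone. Gbp2 was similarly high at 24 h, at 5.41 and 4.61, and so was Lcn2, at 5.41 and 4.93, and Tgtp1 at 3.57 and 3.17. The chemokines Cxcl2, Cxcl10 and Ccl2 had smaller ratios at 24 h than at 4 h. Cxcl2 was at 0.11 and -0.33, Cxcl10 at -0.35 and 0.55, and Ccl2 at 1.15 and 2.31. Cxcl9 was not smaller on both arrays, at 0.90 and 3.95. Mx2, at -0.14 and -0.61, and Ly6f, at -1.44 and -0.39, were no longer above 0. None of the 20 lowest genes of 4 h was called lower at 24 h, and 9 of them had both 24 h arrays above 0. In limma, with arrays as separate samples, 24 h against 4 h passed 0.0% of genes, 0 at an adjusted p under 0.05, and 638 had an unadjusted p under 0.05.

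In all, 19 genes were called at both times in opposite directions. Lower at 4 h and higher at 24 h were 15 of the 111 lower genes, against 3.48% of all genes called higher at 24 h. Higher and then lower were 4 of the 251 higher genes, a share below the 3.52% of all genes called lower at 24 h. The 15 included 4 endothelial identity genes. Eng went from -1.27 and -2.46 at 4 h to 4.51 and 3.31 at 24 h, and Kdr from -1.36 and -2.42 to 2.55 and 1.87. Myct1, at 1.54 and 1.34, and Calcrl, at 1.53 and 1.06, were also higher at 24 h. Tsc22d3 reached 2.32 and 2.25, H2az2 3.30 and 2.00, Ahsg 2.16 and 3.36, and Crip2, a LIM domain protein, 1.88 and 1.66 after -1.79 and -1.43. The 4 genes that were higher and then lower were Actg2, Asf1b, Elac1 and Tmub1. Tmub1, a membrane protein with a ubiquitin-like domain, had the tightest arrays of these, at 1.88 and 2.10 at 4 h and -1.98 and -2.05 at 24 h. The difference of each gene between times was not past the adjusted threshold in limma.

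**Figure D5:**
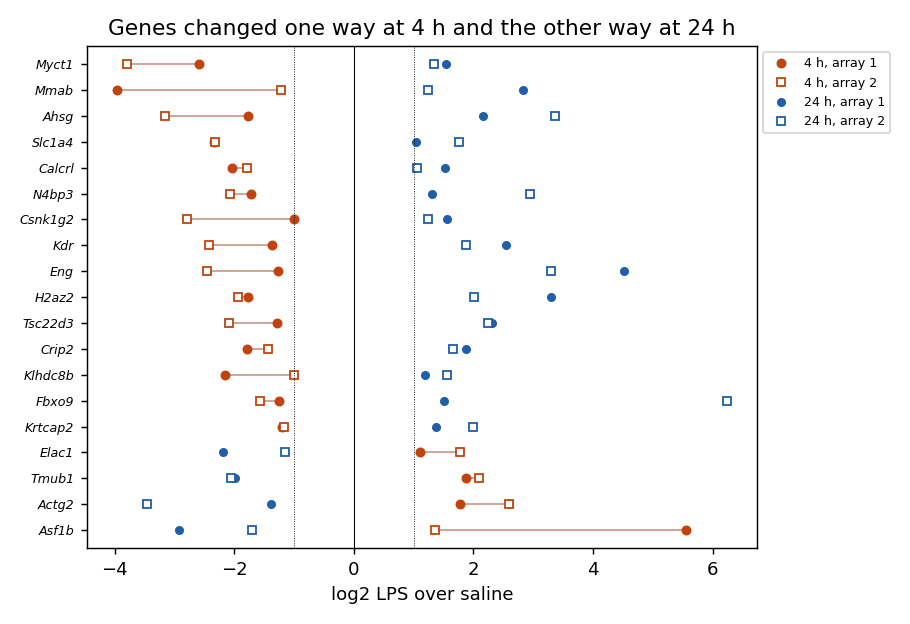
Log2 ratio of LPS over saline on each array at 4 h (red) and 24 h (blue) for the 19 genes called in opposite directions at the 2 times, with dotted lines at 2-fold. In 15 genes the 4 h arrays lie below 0 and the 24 h arrays above it, and in Asf1b, Actg2, Tmub1 and Elac1 the reverse.

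The threshold divided genes of nearly equal values. Just inside it, by the weaker array, were Ifit3, Adat2, Clhc1, Tnik and Smchd1 among higher genes, Smchd1 at 1.01 and 1.08. Med8 (1.26 and 0.99) and Adgrg1 (0.99 and 1.58) lay just outside. Among lower genes, Nr2f6 (-1.0 and -1.38) was just inside and Tbx20 (-1.96 and -0.99) just outside. Arrays were furthest apart among called genes in Hif1an, Dct (-5.66 and -1.05), Asf1b (5.56 and 1.36), H2-D4 and Magee1. Of the 362 called genes, 58 had an SD above 1 and 218 an SD below 0.5, and 205 were larger in size on array 1.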

How the data were processed

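Log2 ratios of 2 dye channels were deposited by the authors for 32448 spots on each of 4 arrays. For scanner settings, background correction, dye normalization and spot filters, the methods were not given in the sources used here; 10.9% and 13.4% of spots on the 4 h arrays had a ratio of exactly 1 (log2 within 1e-06 of 0). Arrays give no counts, so their number limits the precision. The sign of array 2 was turned, the 2 adjacent spots of an oligonucleotide were averaged, then oligonucleotides of a gene (958 genes had several), and the median gene of an array was set to 0. Names came from the platform annotation, checked against RefSeq by gene identifier. Duplicate spots correlated at 0.19 and 0.28 within the 4 h arrays.

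Genes to name were drawn from the 30 higher and 20 lower genes with the largest weaker array among those 2-fold in every spot, changed genes of the lists (with values for those described), all members of the list of known LPS-induced genes, genes called in opposite directions at 24 h, the 5 called genes with the largest gap between arrays, and those nearest the threshold. Genes named as not called that fall outside these groups were chosen after their values were seen. The genes examined and the lists were chosen with earlier results of these data known. Tests across genes used limma 3.58.1 in R 4.3.3, checked on simulated data, and other steps Python 3.11.15 with pandas 2.3.3 and numpy 2.4.6. Alternatives were other normalizations, centring, spot filters, thresholds, each array alone, and array 2 not turned.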

Additional observations from a re-analysis of the deposited data

Results flagged for a closer look

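The 19 genes called in opposite directions at 4 h and 24 h stood out because both arrays of each time lay past 2-fold on opposite sides of saline. Given as the mean log2 ratio at 24 h minus that at 4 h, the 15 that were lower and then higher differed as follows: Ahsg by 5.23, Calcrl by 3.2, Crip2 by 3.38, Csnk1g2 by 3.3, Eng by 5.77, Fbxo9 by 5.27, H2az2 by 4.5, Kdr by 4.1, Klhdc8b by 2.95, Krtcap2 by 2.86, Mmab by 4.62, Myct1 by 4.63, N4bp3 by 4.03, Slc1a4 by 3.73 and Tsc22d3 by 3.97. The 4 that were higher and then lower differed as follows: Actg2 by -4.6, Asf1b by -5.77, Elac1 by -3.11 and Tmub1 by -4. As a share of the 251 higher genes, these 4 were below the 3.52% of all genes called lower at 24 h. Beyond limma, which took arrays as separate samples and passed 0 genes, the differences were not tested. Arrays of 4 h were far apart for Asf1b (5.56 and 1.36) and Mmab (-3.96 and -1.21), and arrays of 24 h for Fbxo9 (1.5 and 6.23).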

How the results depend on the processing

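The 2 arrays count as 1 replicate, so no value carries the spread between animals, and without intensities weak spots cannot be told from strong ones. Of the 362 changed genes, 299 kept their call under all 5 alternatives of scale and quantile normalization, no centring, no spots at exactly 1 and the largest oligonucleotide, as did all 50 ranked genes, and the counts of changed, higher and lower genes stayed within 1.5 times of the main ones. For the 50 ranked genes this was largely fixed by the way they were picked. With array 2 not turned, 158 genes were changed, 87 higher and 71 lower (55.1% higher against 69.3%). With duplicate spots within 0.5 there were 157, 124 higher and 33 lower (79.0% higher), of only 5039 genes. A 1.5-fold threshold gave 941, 550 higher and 391 lower (58.4% higher), and a 4-fold threshold 63, 55 higher and 8 lower (87.3% higher). Either array alone gave 1414 to 2317 changed genes, 780 to 1273 higher and 634 to 1044 lower, and 738 to 982 changed in every spot, against 175 on both arrays. Leaving out spots at exactly 1 raised that count to 321. With the arrays as separate samples, limma passed 0 genes, 0 higher and 0 lower. The mean of H2-Q1 turned to -0.21 with duplicate spots within 0.5, and the cause was not tested. For 24 h against 4 h, the dye orientation as a replicate block gave 0 genes at an adjusted p under 0.05 in limma and 813 at an unadjusted p under 0.05, scale normalization gave 0 and 619, and leaving out each array in turn gave 0 in each case and 269 to 1195. There the lone array of a time is assumed to vary like the other time.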

Other observations

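Several higher genes of 4 h lie beside each other in the genome. Among 10994 pairs of measured genes that follow each other in the RefSeq gene order, both genes were higher in 14 pairs, both lower in 0, and 1 of each kind in 5. These pairs held 27 of the 249 higher genes with a place in that order. They included Psme2b (mean log2 ratio 2.87), Tgtp1 (2.81) and Ifi47 (4.30) in a row, Rsad2 (2.75) beside Cmpk2 (3.45), Ifit2 (3.92) beside Ifit3 (1.79), Cxcl1 (3.84) beside Cxcl2 (3.74) and Cxcl10 (2.37) beside Cxcl11 (2.11). Further pairs joined unlike genes, such as Pgf (3.11) and Eif2b2 (2.21), Srsf3 (1.67) and Cdkn1a (1.18), Dnajc5b (2.05) and Cp (1.83), and Rps18 (1.60) and H2-K1 (2.79). Others were close copies, such as Tuba1a and Tuba1c, whose signals an oligonucleotide could share. With 249 of 11015 placed genes higher, some such pairs arise in any gene order, and their number was not computed. The 14 and the 0 are therefore not read as an excess or a lack.

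Oligonucleotides without a single gene symbol numbered 4052, of which 148 (3.65%) were changed, 106 higher and 42 lower, and 116 lay past 2-fold on opposite sides.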
